A study of Homo sapiens with 16 samples.

Results

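The APOBEC3 cluster on chromosome 22 holds 7 genes, APOBEC3A, APOBEC3B, APOBEC3C, APOBEC3D, APOBEC3F, APOBEC3G and APOBEC3H, and here it is described through histone H3 lysine 27 acetylation (H3K27ac). A region belonged to the cluster when the table named one of the 7 genes as its nearest gene and placed it within 50000 bp of that gene's transcription start site (TSS). That rule, which uses no measured value, gave 25 of the 151654 regions of the table: 6 at APOBEC3A, 2 at APOBEC3B, 2 at APOBEC3C, 1 at APOBEC3D, 6 at APOBEC3F, 3 at APOBEC3G and 5 at APOBEC3H. Each region is a 1000 bp window around a peak of open chromatin, and the farthest member lay at -30045 bp from its TSS. Of the 25 members, 22 passed the filter on low counts (at least 10 tags in at least 2 libraries), and the other 3 are given as tags at the end of the account of levels. In GENCODE v44 the 7 genes run from 38952741 to 39104067 of chromosome 22 in hg38, all on the plus strand, over 151327 bp.

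H3K27ac was measured by ChIP-seq in THP-1, an established human monocytic leukaemia line, in 4 groups of 2 libraries. WT cells, labelled as Cas9 only and given lentivirus with a control guide RNA, were left untreated or received IFNα for 6 h (1000 U/ml). USP18KO cells, CRISPR knockouts of the same line that the methods describe as clones from sorted single cells, were handled in both ways too. The labels do not say whether the 2 libraries of a USP18KO group came from 1 clone, so the loss of USP18 and the history of a clone cannot be told apart, and the series calls its pairs biological replicates.

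APOBEC3 proteins are cytidine deaminases that turn cytosine into uracil in single-stranded DNA. They are known for mutating the reverse transcripts of retroviruses and retrotransposons, and several of them also leave mutations in tumour genomes. Many are interferon-stimulated genes in myeloid cells. USP18 removes the ubiquitin-like protein ISG15 from its targets and restrains signalling from the type I interferon receptor. Acetylation of H3K27 marks active promoters and enhancers, so its level at a region reads the state of the chromatin and not the amount of RNA or protein.

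Depth was between 9046141 and 12935453.5 tags in the regions of a library. The 25 members together held 83.6 and 78.8 of each 1000000 of these tags in the 2 untreated WT libraries and 103 and 107 in WT with IFNα. Untreated USP18KO libraries held 120.1 and 120.3, and USP18KO libraries with IFNα held 298 and 295. Of 11 myeloid marker genes, 11 had a region, and their summed level lay between 245.9 and 274 CPM (tags in 1000000 after scaling by the trimmed mean of M-values) in the 8 libraries. It was highest in USP18KO cells with IFNα, at 271 to 274 CPM, against 245.9 to 249.8 CPM in untreated WT cells. Single markers moved in opposite ways under this sum. MPO, the granule peroxidase, had 48.9 to 56.7 CPM in untreated WT, 16.4 to 18.4 CPM in untreated USP18KO and 3.85 to 4.75 CPM in treated USP18KO cells, while SPI1, the myeloid transcription factor PU.1, had 64.6 to 69.1, 98.7 to 99.4 and 128.4 to 130.7 CPM. LYZ, lysozyme, had 11.4 to 12.2 CPM in untreated WT and 4.60 to 5.68 CPM in treated USP18KO cells. Of 3 T cell markers, 2 had a region and summed to at most 2.01 CPM, and B cell markers summed to between 11.5 and 20.0 CPM, with the highest sums again in USP18KO cells with IFNα (17.1 to 20.0 CPM). The erythroid, epithelial and hepatocyte markers with a region summed to at most 0.567, 1.18 and 0.775 CPM. The part of these marker differences in the results below was not tested.

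The sequences show how alike the promoters are, which bears on where a tag can be placed. In the windows nearest to the TSS, APOBEC3F and APOBEC3G matched at 745 of 765 aligned positions (97.4%), and APOBEC3B and APOBEC3C at 834 of 923 (90.4%). The promoter window of APOBEC3A shared no stretch of more than 52 aligned positions with any of the other six. The elements below are interferon-stimulated response element (ISRE) cores, spelled GAAANNGAAA and searched on both strands, with the match in capitals and 10 bases of hg38 on each side. The first pair comes from the minus strand of the APOBEC3F promoter (chr22:39040651-39040680) and of the APOBEC3G promoter (chr22:39077052-39077081). Both stretches of this pair overlap an annotated exon of their gene. The second pair comes from the plus strand of the same promoters (chr22:39040894-39040923 and chr22:39077295-39077324), in the first exon. The next 2 are the minus-strand match at APOBEC3B (chr22:38982121-38982150) and 1 of 2 overlapping minus-strand matches at APOBEC3C (chr22:39014020-39014049), both upstream of the first exon. The other APOBEC3C match (chr22:39014036-39014045) lies partly in the lower-case bases before the capitals. The last is the stretch at APOBEC3H (chr22:39097260-39097289, plus strand, from the RefSeq GRCh38.p14 promoter, in the first exon) that shares 9 of its 10 central bases with the plus-strand element of APOBEC3F.
APOBEC3F, minus strand: attgcaaaggGAAAGAGAAAgtcattgcag
APOBEC3G, minus strand: attgcaaaggGAAAGAGAAAgtcattgcag
APOBEC3F, plus strand: gcctggagcaGAAAGTGAAAccctggtgct
APOBEC3G, plus strand: gcttggagcaGAAAGTGAAAccctggtgct
APOBEC3B, minus strand: attgcaaagaGAAAGAGAAAggcattgcag
APOBEC3C, minus strand: aagagaaagaGAAAGAGAAAggcattgcag
APOBEC3H, plus strand: gagagctgccAAAAGTGAAActtagtgcct
The APOBEC3H stretch is no match, since it carries G1A, counted from 1 at the 5′ end of the core with the APOBEC3F base first.

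ISRE cores lay in 7 of the 25 member windows, among them the promoters of APOBEC3B, APOBEC3C, APOBEC3F and APOBEC3G, and in 17.2% of all windows of the table. A longer form of the core that ends in CT or CC lay in the same 2 overlapping APOBEC3F windows and in the APOBEC3G promoter window, and in 2.40% of all windows. The promoter windows of APOBEC3A, APOBEC3D and APOBEC3H held no exact core, which says only that these letters are not in those windows. Matches to the NF-κB consensus lay in 13 of the 25 member windows and in 21.8% of all windows. The window at -3349 bp from the APOBEC3A TSS had such matches at 4 positions, and 280 bases with 2 of these (chr22:38953933-38954212, plus strand) are shown because this window carried the largest change of the cluster. Capitals mark the NF-κB matches.
APOBEC3A, -3349 bp: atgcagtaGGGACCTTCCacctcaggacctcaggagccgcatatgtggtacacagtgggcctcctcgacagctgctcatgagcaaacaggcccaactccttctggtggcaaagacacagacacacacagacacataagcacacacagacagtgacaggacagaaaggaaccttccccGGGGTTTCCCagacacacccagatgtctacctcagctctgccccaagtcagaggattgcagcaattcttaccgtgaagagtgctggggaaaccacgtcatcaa
The far upstream window of APOBEC3A, at -15711 bp, held 1 ISRE core, on the minus strand, and 100 bases around it (chr22:38941911-38942010, plus strand) are shown with the core in capitals as it reads on the plus strand.
APOBEC3A, -15711 bp: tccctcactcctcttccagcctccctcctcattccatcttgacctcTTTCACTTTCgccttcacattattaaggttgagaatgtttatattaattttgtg

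Tags of the near-identical promoters are the less certain ones. The study's methods list paired-end reads of 150 bases for these libraries, so the shares at 150 bases are those at read length. In the APOBEC3G promoter window, 51.3% of the stretches of 32 bases and 18.4% of those of 150 bases were found again elsewhere in the 25 primary chromosomes, and in the APOBEC3F window at -25 bp 65.4% and 14.6% were. Values of APOBEC3F and APOBEC3G may thus hold tags of each other. Outside the promoters the shares were 72.3% and 5.75% at -12992 bp of APOBEC3G and 46.7% and 3.64% at its window at -4160 bp. They were 56.9% and 2.11% for APOBEC3F at -4246 bp, and 44.9% and 0% for APOBEC3C at -5763 bp. At the APOBEC3A window at -3349 bp and at the one at -15711 bp no stretch of either length was repeated, and in the APOBEC3H promoter window 11.0% of the 32-base stretches and none of the 150-base stretches were.

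H3K27ac at the promoters differed widely between the 7 genes. In untreated WT cells APOBEC3C, a deaminase with a single catalytic domain, had the highest promoter level, 16.5 and 19.2 CPM in the 2 libraries. APOBEC3B, a nuclear deaminase linked to mutations in tumours, had 10.5 and 7.90 CPM, and APOBEC3G, the main restriction factor of HIV lacking Vif, had 9.19 and 8.98 CPM. These 2 promoters did not differ beyond their spread. APOBEC3H had 6.51 and 4.08 CPM, APOBEC3F, a partner of APOBEC3G in restricting HIV, had 3.20 and 4.90 CPM, and APOBEC3D had 3.20 and 2.36 CPM. Libraries of APOBEC3H and APOBEC3F overlapped, as did those of APOBEC3F and APOBEC3D. APOBEC3A, a deaminase known from monocytes and macrophages, was lowest, at 0.310 and 1.36 CPM, below the libraries of all the others.

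With IFNα in USP18KO cells the order was another one. APOBEC3G led with 49.9 and 48.1 CPM, followed by APOBEC3H with 45.0 and 40.5 CPM and APOBEC3C with 44.1 and 38.3 CPM, whose libraries overlapped. APOBEC3F came next with 24.9 and 26.1 CPM and APOBEC3B with 21.7 and 22.4 CPM. APOBEC3D, at 2.75 and 3.66 CPM, overlapped with APOBEC3A, at 2.84 and 2.82 CPM. APOBEC3C thus led in 3 of the groups (WT, WT with IFNα and untreated USP18KO) and in the last was below APOBEC3G and, by its mean, APOBEC3H. Summed over all tested regions, APOBEC3A held 5.31% and 6.62% of the cluster's CPM in untreated WT libraries and 18.9% and 18.1% in USP18KO libraries with IFNα, while APOBEC3C held 23.6% and 27.8% and then 13.6% and 12.4%.

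**Figure D1:**
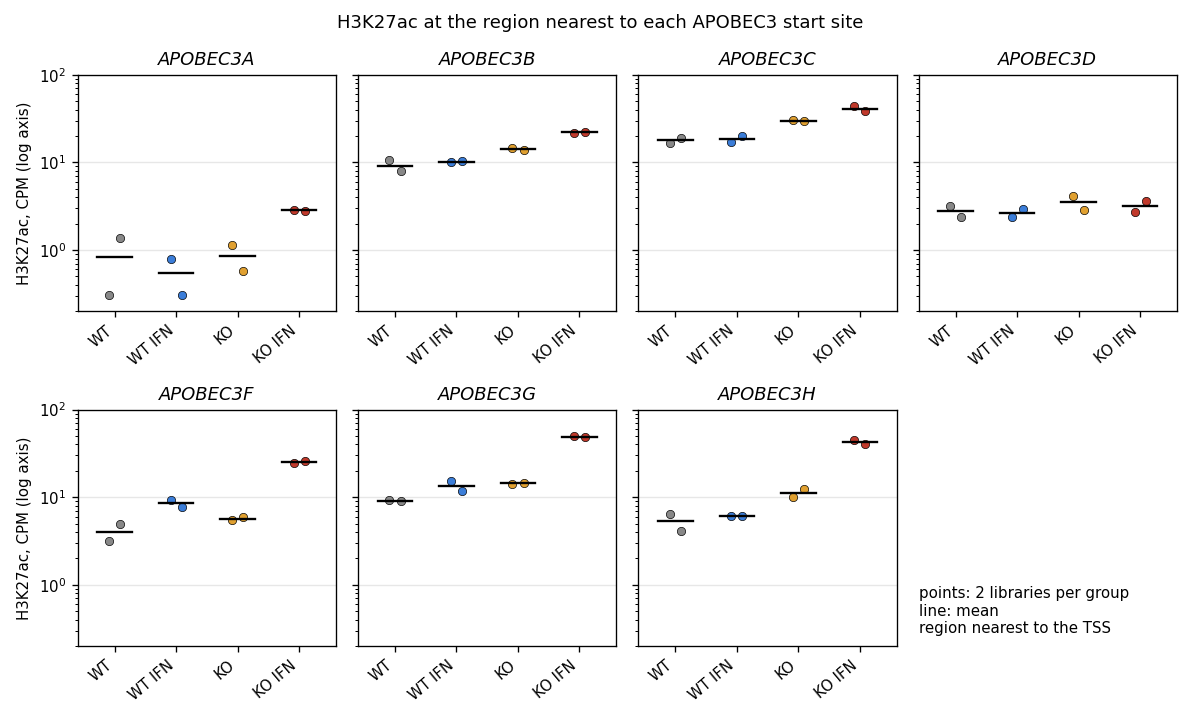
H3K27ac level in CPM (log axis) at the tested region nearest to the TSS of each of the 7 APOBEC3 genes, with 1 point per library (2 per group), a line at the mean, and the groups WT, WT with IFNα (WT IFN), USP18KO (KO) and USP18KO with IFNα (KO IFN). In KO IFN the points of APOBEC3A, B, C, F, G and H sit above all other points of the same gene, and those of APOBEC3D lie among them.

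IFNα in WT cells raised H3K27ac at the APOBEC3F promoter. A window far upstream of APOBEC3A was called too, on few tags, and that call did not hold when a WT library was left out. No other member was called by the test used (edgeR's quasi-likelihood test, Benjamini-Hochberg adjustment over all 123276 tested regions, called at an adjusted p under 0.05 with a change of more than 2-fold). Of 22 tested members, 3 rose and 0 fell, where 0.344% of all tested regions rose and 0.0381% fell. The median log2 fold change of the members was 0.30, beside -0.01 over all regions, and it was 0.49 without the first untreated WT library and 0.13 without the second treated one. A lone adjusted p threshold, with no fold, gave 3 higher and 0 lower members as well, and the share of all regions past it was not counted.

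At APOBEC3F the 2 overlapping windows share tags and are no separate evidence. The window at 213 bp (39040381 to 39041381, in the first exon of the gene) had 4.86 and 5.54 CPM in untreated WT cells and 11.7 and 10.7 CPM with IFNα. Both treated libraries were higher, with a log2 fold change of 1.10 (SE 0.19, adjusted p = 4.6e-05, edgeR). The window at -25 bp (39040143 to 39041143) went from 3.20 and 4.90 CPM to 9.32 and 7.79 CPM, a log2 fold change of 1.06 (SE 0.22, adjusted p = 0.0014, edgeR), and its call was lost without the first untreated library, at 0.80, or without the first treated one, at 0.93.

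The far upstream region of APOBEC3A at -15711 bp (38941311 to 38942311, intergenic) had very few tags in WT cells. It had 4.5 and 3.5 tags in the untreated libraries (0.517 and 0.363 CPM) and 15.5 and 19.5 with IFNα (1.59 and 2.05 CPM). The fitted log2 fold change came to 2.03 (SE 0.49, adjusted p = 0.015, edgeR), and the treated libraries were above the untreated ones. The call did not survive leaving out any 1 of the 4 WT libraries, where the log2 fold change was between 1.79 and 2.28, nor DESeq2, which gave 2.06 (adjusted p = 0.054).

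The other promoters gave smaller values in WT cells. APOBEC3G went from 9.19 and 8.98 CPM to 15.3 and 11.7 CPM, a log2 fold change of 0.57 (SE 0.16) whose adjusted p of 0.071 missed the threshold in edgeR. APOBEC3H had 6.05 and 6.05 CPM with IFNα, inside the range of its untreated libraries. APOBEC3B (0.16, SE 0.18), APOBEC3C (0.05, SE 0.14) and APOBEC3D (-0.05, SE 0.31) had log2 fold changes within about their SE, and APOBEC3A had -0.63 (SE 0.60) at a level near that of a few tags.

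IFNα in USP18KO cells raised H3K27ac at 10 of the 22 tested members, in 4 of the 7 genes: 4 regions at APOBEC3A, 3 at APOBEC3F, 2 at APOBEC3G and the promoter of APOBEC3H. Among the 10, the APOBEC3F window at -4246 bp passed the filter on low counts only through the treated USP18KO libraries. No member fell past the fold threshold. Over all regions 7.14% rose and 4.28% fell, and the median log2 fold change was 0.77 over the members and -0.01 over all regions. The members' median was 1.75 over those with at least 30 counts in 2 libraries and 1.33 within 10000 bp of the TSS. A region of APOBEC3C had an adjusted p under the threshold in the other direction but changed less than 2-fold, and is described below.

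The largest change was at APOBEC3A, in the window at -3349 bp (38953673 to 38954673). The files call it intergenic, and in GENCODE v44, which has a longer APOBEC3A transcript, it lies in an intron, its centre 1432 bp after that transcript's start. It had 0.873 and 1.44 CPM in untreated USP18KO cells, about the level of WT cells in either condition (between 0.817 and 1.33 CPM). With IFNα it had 37.2 and 37.3 CPM, from 419 and 397 tags. This rise of 32.2-fold was 5.01 as a log2 fold change (SE 0.22, adjusted p = 6.2e-35, edgeR), and both treated libraries lay far above the other 6.

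Other APOBEC3A regions rose with it in the treated USP18KO cells. The window at -15711 bp went from 2.88 and 2.41 CPM to 15.8 and 13.1 CPM (log2 fold change 2.44, SE 0.22, adjusted p = 4.2e-16, edgeR). The window at -5574 bp (38951448 to 38952448) went from 1.75 and 1.25 CPM to 5.95 and 5.16 CPM (1.87, SE 0.31). The promoter window at -19 bp (38957003 to 38958003) went only from 1.13 and 0.577 CPM to 2.84 and 2.82 CPM (1.69, SE 0.43, adjusted p = 0.0012, edgeR). In the same libraries the start site was thus below the windows at -3349, -5574 and -15711 bp. The windows at -10111 bp and -30045 bp were lower than the start site, with 1.24 and 0.657 CPM and 1.24 and 0.751 CPM with IFNα, and passed no test.

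A region that the rule leaves out lay on the other side of APOBEC3A. It was chosen for mention after its values were seen. The files name it for APOBEC3B-AS1, but it sits between APOBEC3A and APOBEC3B, from 38967418 to 38968418, with its centre 4734 bp past the end of APOBEC3A. It had 1.31 and 1.15 CPM in untreated USP18KO cells and 21.6 and 19.8 CPM with IFNα, a log2 fold change of 4.05 (SE 0.24, adjusted p = 2.7e-26, edgeR). In WT cells it had 0.826 and 1.09 CPM, and 1.78 and 1.33 CPM with IFNα. Its pattern over the groups was thus close to that of the window at -3349 bp, at a lower level.

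**Figure D2:**
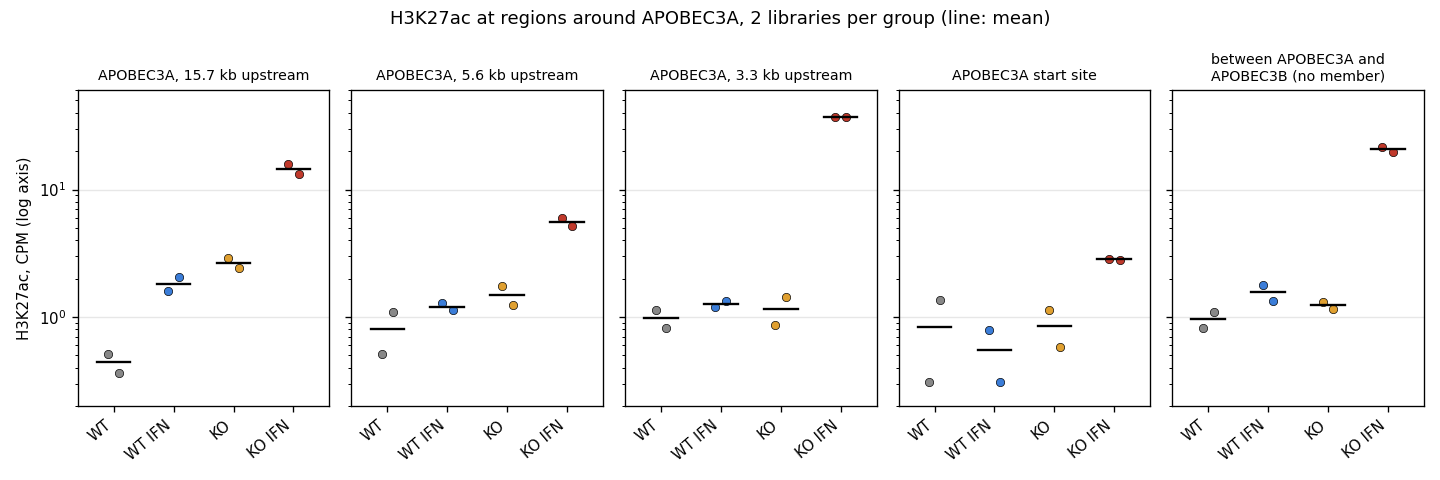
H3K27ac level in CPM (log axis) at 4 APOBEC3A regions (-15711, -5574, -3349 and -19 bp from the TSS) and at the region between APOBEC3A and APOBEC3B that is no member, with 1 point per library, a line at the mean and the groups WT, WT IFN, KO and KO IFN. In KO IFN the window at -3349 bp stands at 37.2 and 37.3 CPM. The start site reaches 2.84 and 2.82 CPM there, from 1.13 and 0.577 CPM in KO.

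APOBEC3G, APOBEC3F and APOBEC3H rose at their promoters. The APOBEC3G promoter (274 bp, 39076779 to 39077779) went from 14.3 and 14.4 CPM to 49.9 and 48.1 CPM, a log2 fold change of 1.77 (SE 0.13, adjusted p = 2.1e-21, edgeR). APOBEC3H (21 bp, 39096745 to 39097745) went from 10.0 and 12.4 CPM to 45.0 and 40.5 CPM (1.93, SE 0.14, adjusted p = 6.0e-21, edgeR). These rises were 3.41-fold and 3.82-fold, and the treated libraries were the higher ones at both.

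APOBEC3F rose at both windows of its promoter. The one at 213 bp went from 6.98 and 7.80 CPM to 35.1 and 35.9 CPM (log2 fold change 2.27, SE 0.15, adjusted p = 1.6e-23, edgeR), and the one at -25 bp from 5.50 and 5.87 CPM to 24.9 and 26.1 CPM (2.16, SE 0.17). A weak window at -4246 bp rose from 0.524 and 0.577 CPM to 1.95 and 1.50 CPM (1.63, SE 0.54), and that call was lost without either untreated USP18KO library. This window passed the filter on low counts only through the treated USP18KO libraries, with 22 and 16 tags there and at most 6 in any other library. Its calls are counted but are no support for a rise in that group. Upstream of APOBEC3G the intergenic window at -4160 bp (39072345 to 39073345) rose from 13.8 and 13.5 CPM to 33.1 and 35.4 CPM (1.33, SE 0.14, adjusted p = 1.0e-13, edgeR). The next one upstream, at -12992 bp, went from 5.67 and 5.10 CPM to 10.7 and 9.58 CPM, a log2 fold change of 0.91 (SE 0.21) that passed the adjusted p (3.4e-04, edgeR) but not the fold threshold.

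At APOBEC3B and APOBEC3C the changes were below 2-fold. The APOBEC3B promoter (-40 bp, 38981859 to 38982859) went from 14.7 and 14.0 CPM to 21.7 and 22.4 CPM (log2 fold change 0.63, SE 0.15, adjusted p = 3.7e-04, edgeR). The APOBEC3C promoter (-80 bp, 39013680 to 39014680) went from 30.5 and 29.4 CPM to 44.1 and 38.3 CPM (0.46, SE 0.12, adjusted p = 0.0010, edgeR). In both, the treated libraries were the higher ones. The APOBEC3C upstream window at -5763 bp (39007997 to 39008997) went the other way, from 3.75 and 5.10 CPM to 2.22 and 2.82 CPM (-0.81, SE 0.29, adjusted p = 0.033, edgeR), and without the first untreated library it passed the fold threshold too, at -1.05. APOBEC3D (325 bp, 39020938 to 39021938) had 4.19 and 2.89 CPM untreated and 2.75 and 3.66 CPM treated, overlapping groups with a log2 fold change of -0.15 (SE 0.28).

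**Figure D3:**
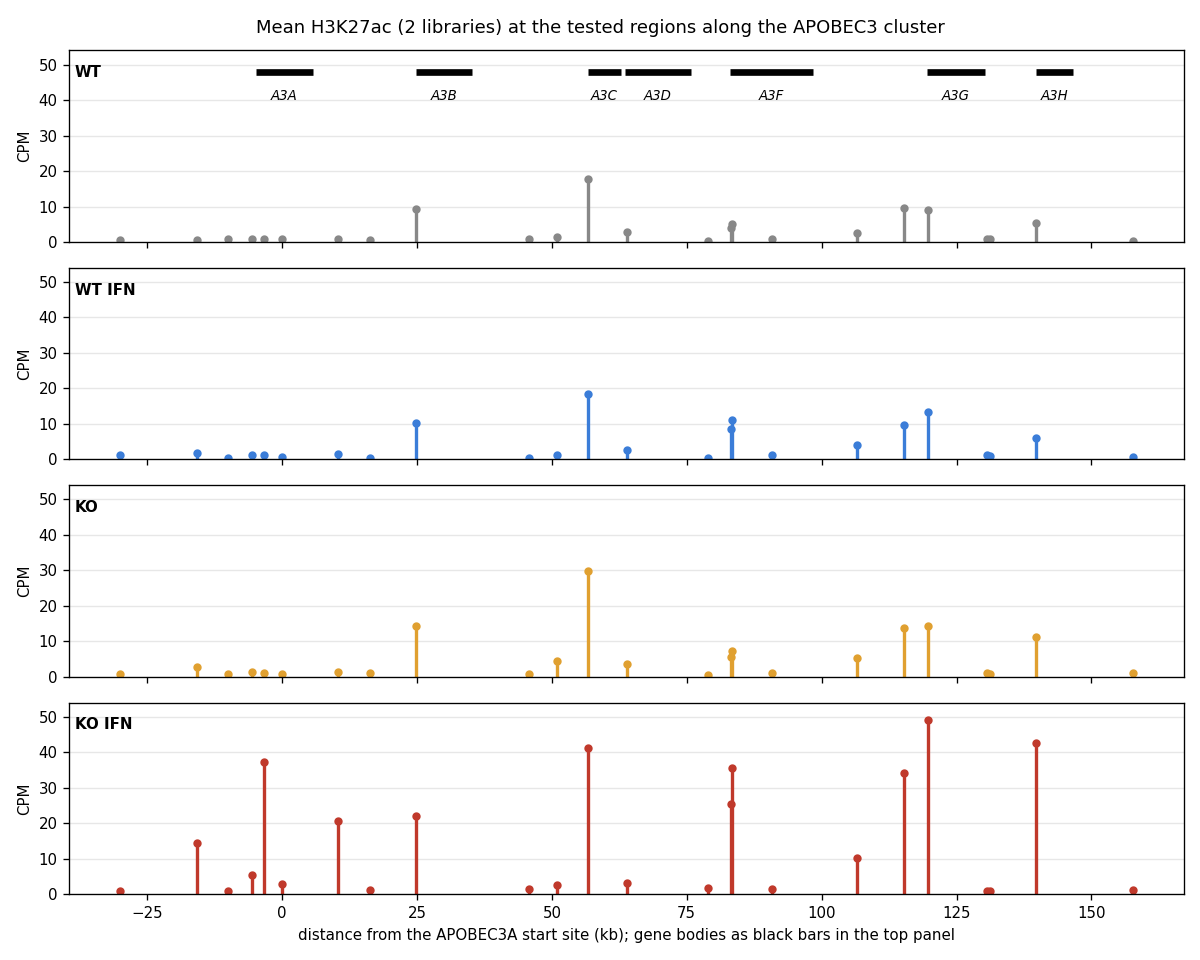
Mean H3K27ac level in CPM (2 libraries) at the 22 tested members and the 2 regions named for APOBEC3B-AS1, against the distance in kb from the APOBEC3A start site, with 1 panel per group and the gene bodies as bars in the top panel. In KO IFN tall signals stand at the APOBEC3A window at -3349 bp (37.2 CPM on average), inside the drawn gene body, and at APOBEC3C, F, G and H. Positions around APOBEC3A reach at most 2.64 CPM in the other panels.

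Without IFNα, USP18KO cells had more H3K27ac than WT cells at 4 of the 22 tested members and less at 0, where 5.66% of all regions were higher and 10.8% lower. The median log2 fold change was 0.51 over the members and -0.02 over all regions, and it was above 0 at 22 of 22. With the adjusted p alone and no fold threshold, 9 members were higher and 0 lower. The shares of all regions above 0, or past the adjusted p alone, were not counted. These counts of members therefore cannot be set beside them. Scaling by the sum of counts moved the median of all regions to -0.16 and left 2 members called.

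The 4 members were spread over the cluster. APOBEC3A at -15711 bp had 0.517 and 0.363 CPM in WT and 2.88 and 2.41 CPM in USP18KO cells (log2 fold change 2.58, SE 0.44, adjusted p = 1.2e-06, edgeR). APOBEC3C at -5763 bp had 1.86 and 0.998 CPM in WT and 3.75 and 5.10 CPM in USP18KO cells (1.64, SE 0.33, adjusted p = 3.3e-05, edgeR). The USP18KO libraries were the higher ones at both. APOBEC3G at -12992 bp had 2.79 and 2.36 CPM in WT and 5.67 and 5.10 CPM in USP18KO cells (1.07, SE 0.27), just past the fold threshold, and was 0.95 without the second WT library and 0.99 without the first USP18KO library. The APOBEC3H promoter had 6.51 and 4.08 CPM in WT and 10.0 and 12.4 CPM in USP18KO cells (1.09, SE 0.19, adjusted p = 1.8e-06, edgeR), and was 0.78 without the second WT library and 0.94 without the second USP18KO library. The APOBEC3H call also depends on the scaling: it was 0.95 with the sum of counts, 0.97 with loess offsets and 0.78 with proximal and distal regions fitted separately. APOBEC3G at -12992 bp was 0.93 with the sum of counts.

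The promoters of APOBEC3B, APOBEC3C and APOBEC3G were higher in untreated USP18KO cells by less than 2-fold. Their log2 fold changes were 0.64 (SE 0.17) for APOBEC3B, 0.74 (SE 0.13) for APOBEC3C and 0.66 (SE 0.16) for APOBEC3G, with adjusted p-values of 0.0011, 1.2e-06 and 4.3e-04 in edgeR. At the window at -3349 bp of APOBEC3A the groups overlapped (0.24, SE 0.44), and at its promoter the log2 fold change was 0.01 (SE 0.54).

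With IFNα in both genotypes, 14 of the 22 tested members were higher in USP18KO cells and 0 lower, where 11.3% of all regions were higher and 13.4% lower. The median log2 fold change was 1.29 over the members and 0.00 over all regions. The 14 lay at every gene but APOBEC3D: 4 at APOBEC3A, 1 at APOBEC3B, 2 at APOBEC3C, 3 at APOBEC3F, 3 at APOBEC3G and 1 at APOBEC3H. Of the 3 at APOBEC3F, the window at -4246 bp passed the filter on low counts only through the treated USP18KO libraries. This comparison shares libraries with those above, so they are not separate evidence.

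APOBEC3A at -3349 bp had 1.19 and 1.33 CPM in treated WT and 37.2 and 37.3 CPM in treated USP18KO cells, a log2 fold change of 4.87 (SE 0.22, adjusted p = 9.2e-34, edgeR). At -15711 bp it was 2.99 (SE 0.25) and at the APOBEC3A promoter 2.33 (SE 0.48). The APOBEC3H promoter had 6.05 and 6.05 CPM in WT against 45.0 and 40.5 CPM (2.82, SE 0.16, adjusted p = 9.6e-28, edgeR), which was 7.06-fold. The treated libraries of the genotypes did not overlap in any of these. APOBEC3G was higher by 1.86 (SE 0.13) at its promoter and by 1.84 (SE 0.15) at -4160 bp, and APOBEC3F by 1.67 (SE 0.14) at 213 bp and 1.57 (SE 0.16) at -25 bp.

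Calls at APOBEC3B and APOBEC3C stood near the fold threshold. The APOBEC3B promoter was higher by 1.11 (SE 0.15) and the APOBEC3C promoter by 1.16 (SE 0.12). Scaled by the sum of counts, which moved the median of all regions to -0.27, they were 0.83 and 0.87. The APOBEC3C window at -5763 bp was higher by 1.05 (SE 0.38), and by 0.61 without the first treated WT library and 0.87 without the second treated USP18KO library. That call was also lost with the sum of counts (0.77), with the library tag totals (0.93) and with DESeq2 (1.05, adjusted p = 0.11). At APOBEC3G, -12992 bp, the value was 1.31 (SE 0.23), and 0.90 without the first treated WT library. APOBEC3D was 0.26 (SE 0.30).

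The IFNα effect itself differed between the genotypes at 7 of the 22 tested members, in each case larger in USP18KO cells, and at 0 in the other direction. Over all regions 4.66% had a larger and 2.51% a smaller effect past the same thresholds, and the median difference was 0.44 over the members and 0.01 over all regions. The members' median was 0.80 without the second treated WT library, 0.28 without the first treated USP18KO library, 1.16 over members with at least 30 counts in 2 libraries and 1.10 within 10000 bp of the TSS or over the cluster interval. The difference was 4.63 on the log2 scale at -3349 bp of APOBEC3A (SE 0.57, adjusted p = 6.1e-10, edgeR). There IFNα gave 0.38 (SE 0.44) in WT and 5.01 (SE 0.22) in USP18KO cells. At the APOBEC3H promoter the difference was 1.72 (SE 0.26, adjusted p = 2.8e-07, edgeR), from 0.21 (SE 0.22) in WT and 1.93 (SE 0.14) in USP18KO cells.

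APOBEC3G differed at both of its stronger regions. The difference was 1.31 (SE 0.22, adjusted p = 3.9e-06, edgeR) at -4160 bp, where WT cells had a log2 fold change of 0.02 (SE 0.17), and 1.20 (SE 0.21, adjusted p = 6.3e-06, edgeR) at the promoter. APOBEC3F, which responded in both genotypes, differed by 1.17 (SE 0.25, adjusted p = 2.8e-04, edgeR) at 213 bp and 1.10 (SE 0.29, adjusted p = 0.0036, edgeR) at -25 bp, the latter 0.75 without the second untreated WT library, 0.98 without the second treated WT library and 0.97 with the sum of counts. The APOBEC3A promoter differed by 2.32 (SE 0.74, adjusted p = 0.024, edgeR) at low counts, by 0.88 without the second untreated WT library, and the call was also lost without the second treated WT, the second untreated USP18KO or the first treated USP18KO library (1.82 to 2.28), and with proximal and distal regions fitted separately (2.28, adjusted p = 0.053, edgeR).

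APOBEC3A at -15711 bp rose with IFNα in USP18KO cells, and in WT cells by a call on few tags that was lost without any 1 WT library. The difference of 0.41 (SE 0.65, adjusted p = 0.80, edgeR) was not past the threshold and, with this SE, its size could not be told at this depth. APOBEC3B (0.47, SE 0.23, adjusted p = 0.21, edgeR) and APOBEC3C (0.42, SE 0.18, adjusted p = 0.13, edgeR) did not pass at their promoters either. APOBEC3D had -0.11 (SE 0.42).

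**Figure D4:**
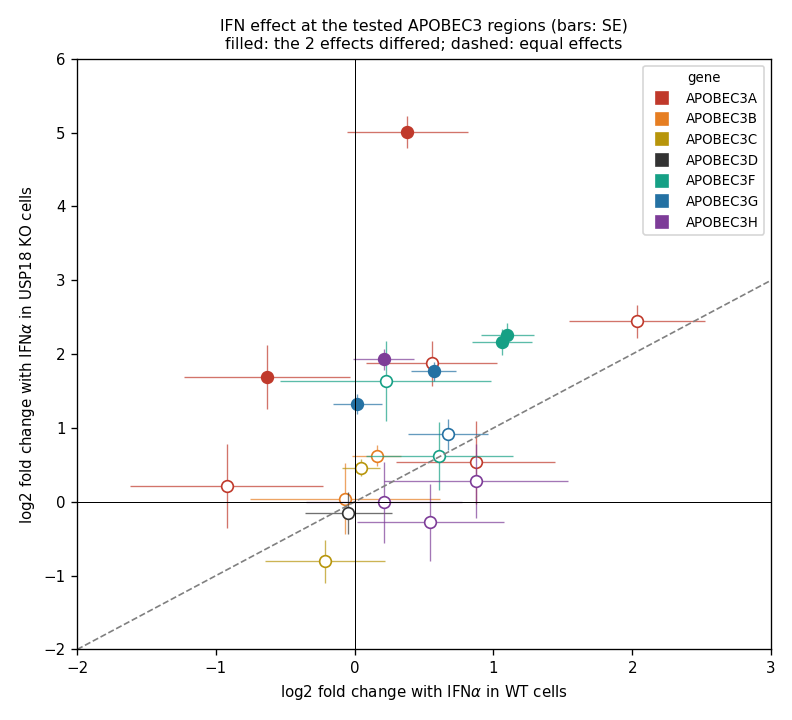
Log2 fold change with IFNα in WT cells (x axis) against that in USP18KO cells (y axis) at the 22 tested members, coloured by gene, with bars for the SE, filled points where the difference of the 2 effects was called, and a dashed line of equal effects. The APOBEC3A window at -3349 bp stands alone near 5.01 on the y axis and 0.38 on the x axis, and the 7 filled points all lie above the dashed line.

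Of the 22 tested members, 14 were called in at least 1 of the 5 contrasts and 8 in none. The 8 were APOBEC3D at 325 bp, APOBEC3A at -30045 and -10111 bp, APOBEC3B at -8646 bp, APOBEC3F at 7618 bp, and APOBEC3H at -9028, -8514 and 18038 bp. Apart from APOBEC3D their levels were at most 1.88 CPM in any library. The 3 members that were not tested had between 3.5 and 13 tags in each library: APOBEC3F at -9653 bp had 4.5 to 13, APOBEC3F at 10375 bp had 4.0 to 10.5 and APOBEC3H at 20853 bp had 3.5 to 9.5. No member had 0 tags in any library.

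Genes that flank the cluster on chromosome 22 were also measured. Of 54 tested regions of 8 flanking genes, 0 were called with IFNα in WT cells, and 3 rose and 1 fell with IFNα in USP18KO cells. Over all regions 0.344% rose and 0.0381% fell in WT cells, and 7.14% rose and 4.28% fell in USP18KO cells. Against untreated WT cells, untreated USP18KO cells had 6 of the 54 higher and 3 lower (median log2 fold change 0.32). The shares of all regions were 5.66% and 10.8%. With IFNα in both genotypes 14 of the 54 were higher in USP18KO cells and 3 lower (median 0.31). The shares of all regions were 11.3% and 13.4%. The effect of IFNα was larger in USP18KO cells at 2 of the 54 and smaller at 0, against 4.66% and 2.51% of all regions. Whether the members differ from these neighbours was not tested. RPL3, a ribosomal protein gene, had 0.15 (SE 0.11) in WT and 0.27 (SE 0.11) in USP18KO cells with IFNα at its promoter. SUN2, whose product sits in the nuclear envelope, was not called with IFNα but had 0.85 (SE 0.10) in untreated USP18KO against WT cells.

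Among 14 other deaminase genes the promoter of ADAR, the RNA-editing adenosine deaminase with an interferon-driven form, rose with IFNα in both genotypes. It went from 42.0 and 39.8 CPM to 92.2 and 89.5 CPM in WT (log2 fold change 1.15, SE 0.09) and from 48.2 and 37.8 CPM to 190 and 182 CPM in USP18KO cells (2.11, SE 0.09). Of 80 tested regions of this list, 2 rose in WT cells and 10 in USP18KO cells with IFNα, 0 fell in either, and the median log2 fold changes were -0.09 and -0.07. Over all regions 0.344% rose and 0.0381% fell in WT cells, and 7.14% rose and 4.28% fell in USP18KO cells. Without IFNα, 0 of the 80 were higher and 10 lower in USP18KO than in WT cells, against 5.66% higher and 10.8% lower over all regions. The region nearest to APOBEC2, at -1037 bp, rose from 2.09 and 1.92 CPM to 6.30 and 5.54 CPM in USP18KO cells (log2 fold change 1.55, SE 0.28), and that of APOBEC4, at -2375 bp, from 0.698 and 1.06 CPM to 2.04 and 2.35 CPM (1.32, SE 0.45, adjusted p = 0.021, edgeR). The effect of IFNα was larger in USP18KO than in WT cells by 1.98 (SE 0.44) at APOBEC2 and by 2.34 (SE 0.82, adjusted p = 0.045, edgeR) at APOBEC4, both at low levels, and by 0.96 (SE 0.13) at ADAR, under the fold threshold. CDA, the cytidine deaminase of the pyrimidine salvage pathway, was lower in untreated USP18KO cells by a log2 fold change of -1.26 (SE 0.30).

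Of the uracil repair genes, whose products act on the uracils that APOBEC3 enzymes leave in DNA, UNG had a called fall with IFNα at its promoter in USP18KO cells. UNG, the main uracil-DNA glycosylase, had 6.20 and 9.72 CPM in untreated USP18KO cells and 3.28 and 2.72 CPM with IFNα (log2 fold change -1.39, SE 0.23, adjusted p = 9.0e-07, edgeR), against 11.1 and 10.9 CPM and 11.2 and 11.3 CPM in WT cells. The difference of the effects was -1.42 (SE 0.30, adjusted p = 1.9e-04, edgeR). MBD4, a glycosylase for thymine and uracil opposite guanine, changed by less than 2-fold at its promoter in USP18KO cells, by -0.41 (SE 0.11, adjusted p = 0.0019, edgeR), with a difference of the effects of -0.51 (SE 0.15, adjusted p = 0.014, edgeR). The promoters of SMUG1 (0.01, SE 0.26), TDG (0.22, SE 0.13), APEX1 (0.10, SE 0.10) and APEX2 (0.34, SE 0.13) were not called with IFNα in USP18KO cells. SAMHD1, which removes the nucleotides that reverse transcription needs, was higher in USP18KO than in WT cells with IFNα by 1.46 (SE 0.09). Of 44 tested regions of the list of 8 genes, which also holds DUT and SAMHD1, 2 rose and 6 fell with IFNα in USP18KO cells. Over all regions 7.14% rose and 4.28% fell there. In WT cells 0 of the 44 were called, where 0.344% of all regions rose and 0.0381% fell.

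Some of the other retrovirus restriction factors rose with IFNα in both genotypes. Of 53 tested regions at 10 genes, 5 rose in WT cells and 17 in USP18KO cells, 0 and 2 fell, and the median log2 fold changes were 0.13 and 0.26. Over all regions 0.344% rose and 0.0381% fell in WT cells, and 7.14% rose and 4.28% fell in USP18KO cells. MX2, which blocks nuclear entry of HIV, went from 3.41 and 4.36 CPM to 19.2 and 18.2 CPM in WT and from 4.01 and 5.00 CPM to 72.7 and 65.0 CPM in USP18KO cells. IFITM3, which blocks virus entry, had log2 fold changes of 2.15 (SE 0.16) and 3.59 (SE 0.14), and TRIM5, which binds incoming capsids, had 0.96 (SE 0.17) and 2.41 (SE 0.14), the first of which did not pass the fold threshold. MX2, IFITM3 and TRIM5 did not have a called difference between untreated USP18KO and WT cells. Of the 53 regions of the whole list 0 were higher and 3 lower there, against 5.66% higher and 10.8% lower over all regions.

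The promoters whose log2 CPM over the 8 libraries was most like that of a member are given as a description, out of 14276 promoters and over 8 libraries that fall into 4 groups. For APOBEC3F these were IFIT5 (Pearson's r = 0.993), DHX58 (0.991), TRIM5 (0.990), PSMD12 (0.989) and HELZ2 (0.989). For APOBEC3G they were FBXW9 (0.998), MOV10 (0.997), TRIM26 (0.996), MASTL (0.995) and CCL8 (0.994). For APOBEC3H they were LINC01686, UBR2, LINC01506, IFI30 and CTNNBL1, at 0.995 to 0.998. APOBEC3B (NR4A3, RBM34, SMARCA5, LINC00528 and TMEM99, 0.991 to 0.996) and APOBEC3C (DENND4A, GLI1, CWC22, LEPROTL1 and INVS, 0.994 to 0.996) were most like other promoters, with SMARCA5, a chromatin remodeller, at 15.2, 17.9, 26.4 and 42.2 CPM on average in WT, WT with IFNα, USP18KO and USP18KO with IFNα. The APOBEC3A promoter, with its few tags, was most like ANAPC1, SAV1, MMP23B, PPIL1 and NUFIP1 (0.963 to 0.975).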

How the data were processed

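H3K27ac ChIP-seq was deposited as 1 table for the 8 libraries. The authors mapped reads to hg38 with Bowtie2 and counted raw tags with HOMER around merged ATAC-seq peaks (1000 bp windows), as the study's methods and the submitters' processing notes give it; values are expected counts as deposited by the authors, with fractions of a tag (52.2% whole), not normalized. Here the term expected counts means only that the raw HOMER tags carry fractions. The study's methods describe no model that shares a read between similar sequences, and the origin of the fractions was not tested. The 8 input libraries of the labels are not analysed here, and 0 value columns were left without a sample. H3K27ac gives no check of the knockout itself.

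Tags were rounded to whole counts. The filter kept regions that reached 10 counts in 2 or more libraries, and they were scaled by TMM and tested with edgeR 4.0.16 (R 4.3.3; limma 3.58.1), 1 mean per group, Benjamini-Hochberg over 123276 regions, called at an adjusted p under 0.05 and a log2 fold change over 1 in size. The smallest library held 9082433 counts; p-values measure the spread between 2 libraries per group, shared across regions. SE is the log2 fold change divided by the root of F. The code was tested on simulated data.

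Regions described singly were the tested region nearest to each TSS, the one with the highest mean CPM, and the 3 largest called rises and falls per contrast with groups that do not overlap; other members are added as such. Members, lists and rules were chosen with earlier results of these data known. Motifs were searched in hg38 (Python 3.11.15), promoter windows aligned locally with Biopython 1.88, and likeness computed on log2(CPM + 0.5) for regions within 1000 bp of a TSS. Alternatives were other scalings, DESeq2 1.42.0, other filters, a replicate block, unrounded tags, other choices of libraries and regions, and leaving out each library.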

Additional observations from a re-analysis of the deposited data

Results flagged for a closer look

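At 7 members the effect of IFNα differed between WT and USP18KO cells by the test of the difference itself (edgeR, adjusted p under 0.05 and a log2 difference over 1). In log2 units of the USP18KO minus the WT effect, these were the APOBEC3A window at -3349 bp with 4.63, the APOBEC3A promoter at -19 bp with 2.32, the APOBEC3F windows at -25 bp with 1.10 and at 213 bp with 1.17, the APOBEC3G windows at -4160 bp with 1.31 and at 274 bp with 1.20, and the APOBEC3H promoter at 21 bp with 1.72. Both libraries of treated USP18KO cells were the highest of the 8 at each of them. The pair of APOBEC3F windows overlaps and shares tags.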

How the results depend on the processing

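No result changed direction once called, and the count of members higher with IFNα in USP18KO cells, higher in treated USP18KO against WT cells, or with a larger IFNα effect stayed within 1.5 times under every alternative run. Leaving out a library gave 1 to 3 members higher with IFNα in WT cells, 0 to 1 lower with IFNα in USP18KO cells and 2 to 4 higher in untreated USP18KO cells. The last count was 2 with the sum of counts, 9 with no fold threshold and 2 within 10000 bp of the TSS. With no fold threshold 1 member was lower with IFNα in USP18KO cells. The share of all regions was not counted with no fold threshold. The members' median log2 fold changes kept their sign but moved with the choice of members and libraries: with at least 30 counts in 2 libraries they were 1.75 with IFNα in USP18KO cells, 1.71 between treated genotypes and 1.16 for the difference of the effects. Over single regions, 44 of 2118 values lost their call and 3 gained one (22 members and 2 neighbouring regions). The calls at the APOBEC3H promoter between untreated genotypes and at the APOBEC3B and APOBEC3C promoters between treated genotypes depend on the scaling: APOBEC3B had 0.83 with the sum of counts, 0.99 with the library tag totals, 0.98 with loess offsets and 0.76 with proximal and distal regions fitted separately, and APOBEC3C had 0.87, 0.85 and 0.80 with the sum of counts, loess offsets and separate fits. DESeq2 gave no adjusted p for 45 member values, which were left out.

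The libraries shared replicate numbers, but same-numbered libraries did not deviate together (r = 0.001 to 0.042), so the numbers do not pair them; with the replicate block the counts of higher members were 3, 10, 4, 14 and 7 and no call changed. Depth limits what can be said of members under 2 CPM.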
